A study of Homo sapiens with 6 samples.

Results

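In these RNA-seq data 100 of 40205 genes stood far higher in a single library, CLs-1, than in any other, and most of them were near 0 elsewhere. They were selected on the measured counts: a gene was kept when it had 10 or more counts, that is reads on the gene, in CLs-1 and a CPM there more than 8 times the highest CPM of the other 5 libraries. CPM is the count divided by the total of the library, times 1000000. Since the counts of all 6 libraries chose the genes, every level below is a description. The tests of the CLs-treated against the control group, given last, used the same counts and support nothing about the set. The 100 genes are 0.644% of the 15531 genes that reached 10 reads in CLs-1. They were sorted by tissue or cell origin with 24 lists of known marker genes, 437 genes in all. The lists were written with earlier results of these data known. Into 11 of these lists fell 46 of the 100 genes, and that count is a description too. The set held collagens, fibroblast surface proteins, proteins of steroid hormone synthesis, hemoglobins, plasma proteins, chemokines and neuronal proteins.

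The study exposed HepG2 cells, a human line from a liver tumour, to cationic liposomes (CLs), positively charged lipid vesicles made to carry nucleic acids into cells. The liposomes consisted of the cationic lipid DOTAP, cholesterol and a PEG-coupled lipid. The untreated samples were Control-1, Control-2 and Control-3 (n = 3), while CLs-1, CLs-2 and CLs-3 (n = 3) were CLs-treated samples of the same line in the same medium, the treated ones left with CLs for 24 h. The sample labels give the dose as 120 μM, while the discussion of the study gives the same figure in μg/ml. The study calls the 6 samples independent. The labels do not say whether they came from separate cultures, and if they did not, the spread between them is technical. The libraries held 11418527 to 13998946 counts on genes, the most in CLs-1, and a read was seen on 22034 genes in CLs-1 against 20614 to 20950 genes in the others. In the study's mapping statistics CLs-1 also had the most raw reads and the lowest mapped and uniquely mapped shares of the 6 samples.

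Tissues are told apart by genes that few cell types use. Red cells are filled with hemoglobin, fibroblasts lay down fibrillar collagen and small proteoglycans, cells of the adrenal cortex and gonad carry cholesterol into mitochondria to make steroids, and hepatocytes secrete fibrinogen and apolipoproteins into plasma. HepG2 cells are known for secreting many hepatocyte proteins, among them albumin and alpha-fetoprotein.

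That liver program was near the floor of the data in the libraries labelled HepG2. The 32 genes of the liver and plasma protein list had 29 to 49 counts together in the 3 control libraries, 45 and 29 in CLs-2 and CLs-3, and 300 in CLs-1. TTR, APOC3, APOH, HP and F2 were at 0 counts in all 6 libraries. ALB, the albumin gene, had 8 reads in CLs-1 and 0 in each of the others, and AFP had at most 1 count in any library. Outside CLs-1, AMBP and VTN were the genes of the list that reached 10 counts in some library. The levels in all 6 libraries thus went against the label of the line, and CLs-1 differed from the others in this list as well. In bulk RNA, fewer cells of a type and less RNA per cell cannot be told apart.

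Reads on the 100 genes summed to 49, 65 and 92 in the 3 control libraries, to 59 and 66 in CLs-2 and CLs-3, and to 5516 in CLs-1. Relative to the totals this was 4.16, 5.55 and 7.92 CPM in the control libraries, 5.04 and 5.78 CPM in CLs-2 and CLs-3, and 394.0 CPM in CLs-1 (383.7 to 404.6, exact Poisson 95% interval). CLs-2 and CLs-3 lay within the range of the control libraries, so the control and the CLs-treated group overlapped. CLs-1 was 69.3-fold (62.0 to 77.7) above the other 5 libraries pooled. These intervals cover counting error only. CLs-1 is 1 library, and its level has no replicate check. The genes took 0.0394% of its counts.

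**Figure D1:**
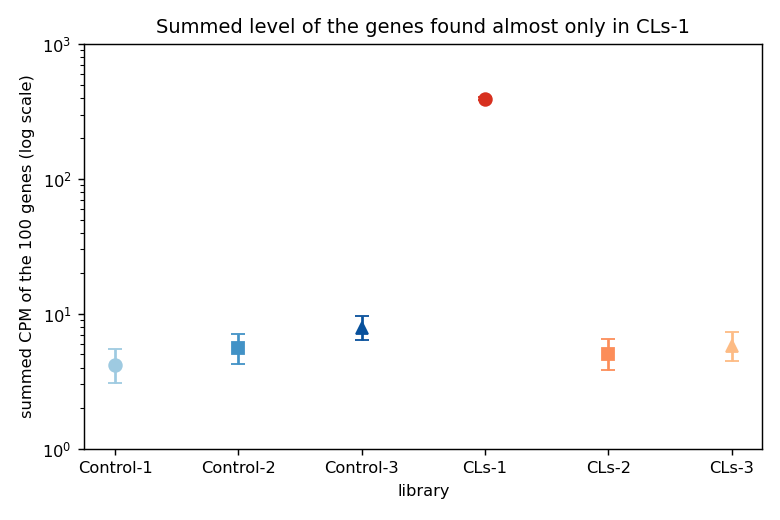
Summed CPM of the 100 genes in each of the 6 libraries, on a log axis, with exact Poisson 95% intervals as bars (counting error only). The 5 libraries other than CLs-1 lie between 4.16 and 7.92 CPM, and CLs-1 lies at 394.0 CPM.

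The reads outside CLs-1 were few for nearly every gene. In all 5 other libraries 28 of the 100 genes had 0 counts, 76 had at most 1 count in each of them, and 93 had at most 3. A count of 0 allows up to 3 counts, or 0.255 to 0.263 CPM, per library. FOSB was the single gene over 10 counts in another library. Within CLs-1 the counts ran from 10 to 1044 with a median of 17, and 56 genes had 10 to 19 counts. The 10 genes with 100 or more counts carried 60.8% of the reads of the set.

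Genes of collagens and extracellular matrix made up the greatest share, with 8 of the 51 genes of that list and 36.0% of the reads of the set. COL1A2, the alpha-2 chain of type I collagen, had 1044 reads in CLs-1, 2 in Control-2, 1 in Control-3 and 0 in Control-1, CLs-2 and CLs-3. SPARC, a collagen-binding matrix protein, had 451 reads in CLs-1, 6 in each control library, 4 in CLs-2 and 5 in CLs-3. COL6A3, a chain of type VI collagen, had 258 reads in CLs-1, 3 in CLs-2, 1 in CLs-3 and in Control-3, and 0 in Control-1 and Control-2. In all of these the control libraries, CLs-2 and CLs-3 were at a like low level and CLs-1 stood alone. COL6A2, which encodes another type VI chain, had 113 reads in CLs-1 and 0, 2 and 3 in the control libraries, with 0 in CLs-2 and 2 in CLs-3. BGN, the proteoglycan biglycan, had 40 reads in CLs-1 and 1, 0, 1, 1 and 0 in Control-1, Control-2, Control-3, CLs-2 and CLs-3. VCAN, the proteoglycan versican, had 35 in CLs-1 and at most 2 elsewhere. THBS2, a matricellular thrombospondin, was read in CLs-1 alone, with 30 counts. COL8A2, a short-chain collagen, had 17 reads in CLs-1 and at most 1 elsewhere. Summed, the 8 genes were 156-fold (118.8 to 209.1) above the other 5 libraries.

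Other matrix genes were abundant in every library, and the set was not the whole of the list. COL3A1, the chain of type III collagen, had 9697 reads in CLs-1 and 7456 to 11358 elsewhere. COL1A1, which pairs with COL1A2 in type I collagen, had 2472 reads in CLs-1 and 764 to 1302 elsewhere. The COL1A2 reads were therefore near 0 in 5 libraries that all read COL1A1. FN1, or fibronectin, did not reach the ratio of 8 and is named because its value stood out after the counts were seen. It had 701, 571 and 406 counts in the control libraries, 436 and 282 in CLs-2 and CLs-3, and 4991 in CLs-1, which equals 90.5% of the reads of the whole set. Of the 40 genes of the list that had a read and were outside the set, 20 had their highest CPM in CLs-1. Over all 25332 genes with a read outside the set this share was 27%.

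Fibroblast and mesenchymal genes gave 9 of the 42 genes of their list, with lower counts than the matrix genes. THY1, a surface glycoprotein of fibroblasts, had 58 reads in CLs-1, 1 in Control-2 and 0 in the rest. GREM1, a secreted antagonist of bone morphogenetic proteins (BMPs), had 42 reads in CLs-1 and 0 in each of the other 5. CD248, also called endosialin, and ADAM19, a membrane metalloprotease, showed the same pattern, with 28 and 24 reads in CLs-1. FNDC4, a secreted fibronectin-domain protein, had 34 reads in CLs-1, 3 in CLs-2, 1 in Control-2 and 0 in the others. MXRA8, a matrix-remodelling associated membrane protein, had 30 in CLs-1 and at most 1 elsewhere. SLIT3, a secreted guidance ligand, had 18 reads in CLs-1, 1 in CLs-3 and 0 in the rest. FAP, the fibroblast activation protease, had 15 in CLs-1 and 1 in Control-1, Control-2, CLs-2 and CLs-3. The 9 genes together were 82.9-fold (47.6 to 157.8) above the other libraries pooled. VIM, the intermediate filament vimentin that mesenchymal cells and many lines share, was outside the set, with 14821 reads in CLs-1 and 10014 to 12314 elsewhere. The smooth muscle list gave 1 of 21 genes, CNN1, an actin-binding calponin. It had 17 reads in CLs-1 and 0 in the others. This was at least 23.6-fold higher than a floor of 3 counts over the pooled 5 libraries. ACTA2 and TAGLN of that list had 107 and 1964 reads in CLs-1, against 49 to 132 and 378 to 3542 elsewhere. MYH11 had 1 read in CLs-1 and at most 3 elsewhere. In that list 5 of the 17 genes with a read outside the set were highest in CLs-1, beside 27% of all such genes.

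**Figure D2:**
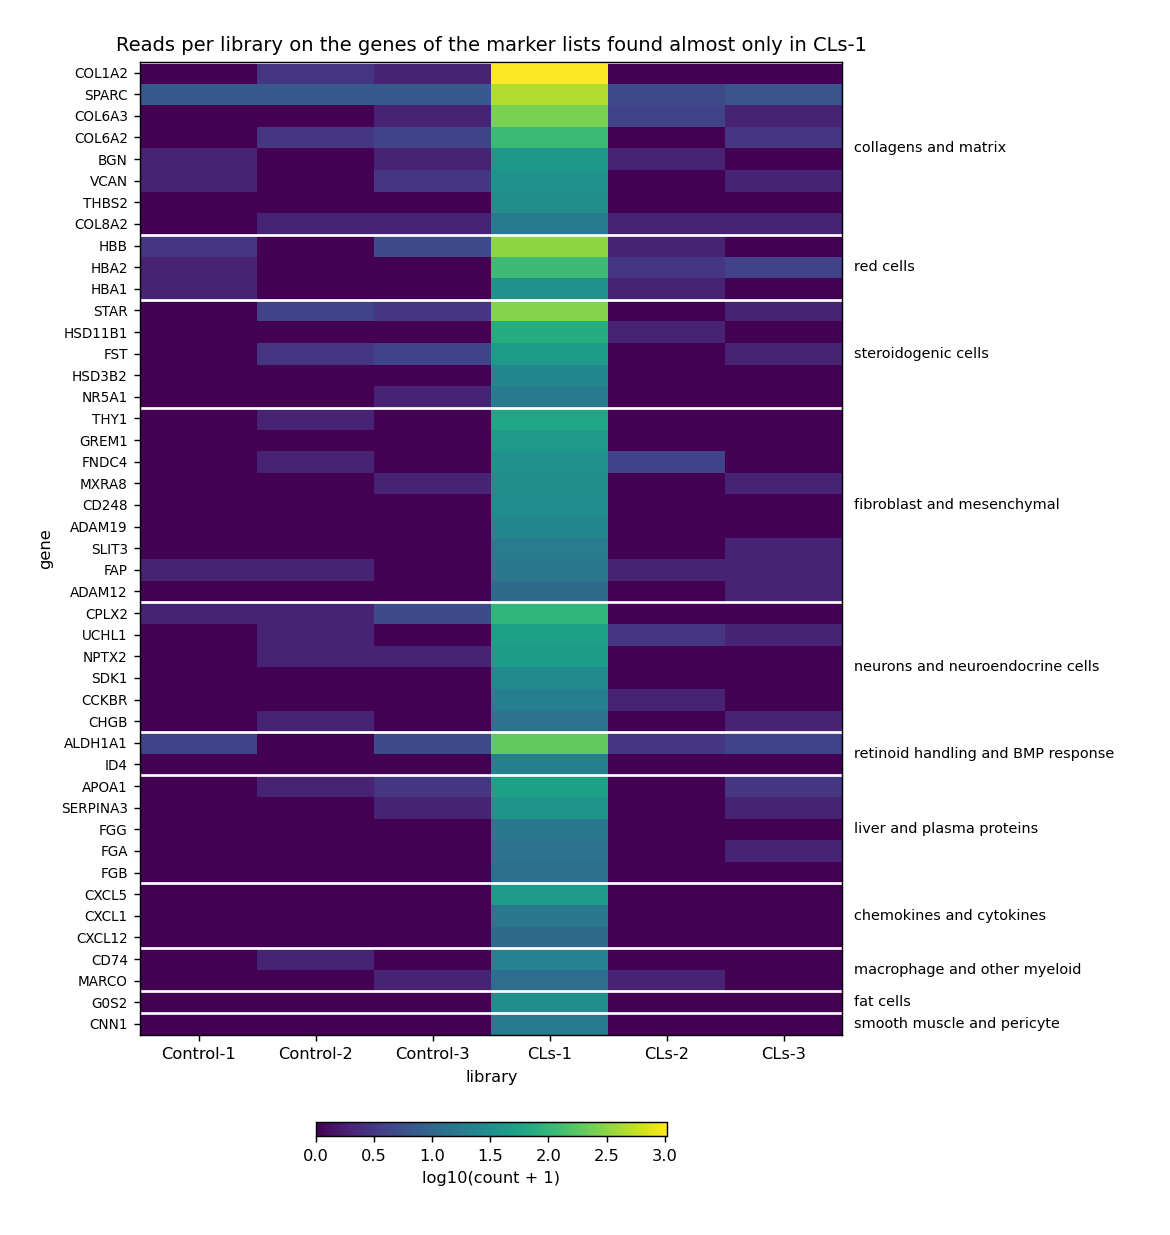
Counts of 45 genes that belong to a marker list, by library (columns) and gene (lines of the map, grouped by list), coloured by log10(count + 1). The CLs-1 column is bright throughout, from 10 counts (ADAM12, CXCL12) to 1044 (COL1A2), while no cell of the other 5 columns exceeds 6 counts (SPARC).

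Of the 30 genes of the steroidogenic list, 5 were in the set, covering cholesterol transport, steroid conversion and the transcription factor of the lineage. STAR, which moves cholesterol into mitochondria, had 290 reads in CLs-1, 0, 3 and 2 in the control libraries, and 0 and 1 in CLs-2 and CLs-3. HSD11B1, which converts cortisone to cortisol, had 73 reads in CLs-1, 1 in CLs-2 and 0 elsewhere. HSD3B2, the 3-beta-hydroxysteroid dehydrogenase of adrenal and gonad, had 24 in CLs-1 and 0 in all others. NR5A1, also called SF-1, the nuclear receptor that drives steroidogenic genes, was lower, with 16 reads in CLs-1, 1 in Control-3 and 0 elsewhere. FST, or follistatin, which binds activin, had 43 reads in CLs-1, 0, 2 and 3 in the control libraries, 0 in CLs-2 and 1 in CLs-3. The 5 genes together were 132.5-fold (78.2 to 244.4) above the pooled other libraries.

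The rest of the steroid pathway was uneven. CYP11A1, the side-chain cleavage enzyme that acts just after STAR, was outside the set, at a ratio of 4.25 to the highest other library. It had 11, 29 and 16 counts in the control libraries, 29 and 29 in CLs-2 and CLs-3, and 151 in CLs-1. HSD17B1, an estradiol-forming dehydrogenase, had 4, 14 and 19 counts in the control libraries, 25 and 15 in CLs-2 and CLs-3, and 90 in CLs-1. Both were named after their values were seen, and in both CLs-1 was the highest library. FOXL2, a transcription factor of ovarian granulosa cells, had 233 reads in CLs-1 and 170 to 241 elsewhere, and AMH had 37 against 27 to 41. The defining adrenal enzymes CYP21A2, CYP11B1 and CYP11B2, the corticotropin receptor MC2R and the placental dehydrogenase HSD3B1 were at 0 in all 6 libraries. CYP17A1 had 1 count in CLs-1 and 0 elsewhere. Among the 18 genes of this list that had a read and were outside the set, 11 were highest in CLs-1, beside the 27% of all such genes.

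**Figure D3:**
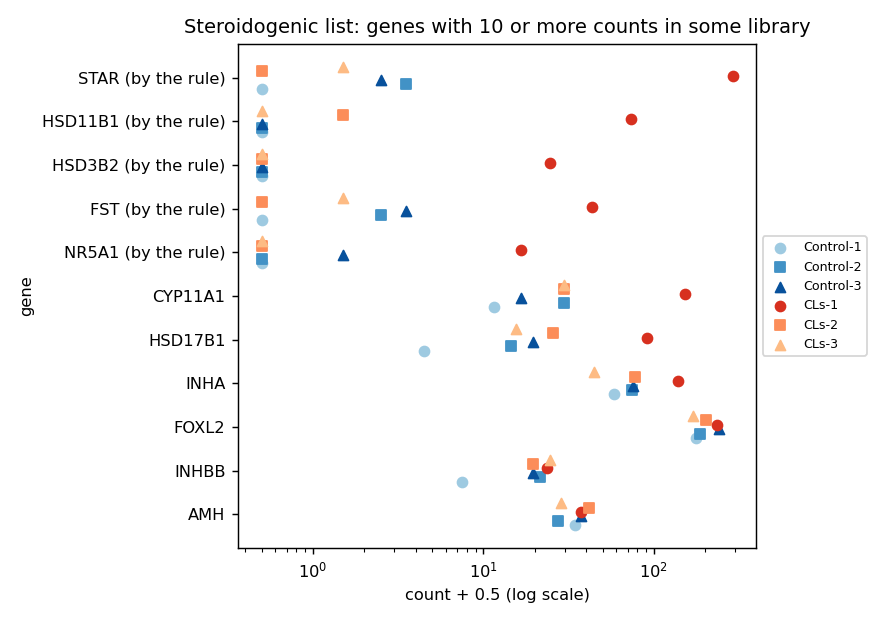
Counts of the 11 genes of the steroidogenic list with 10 or more counts in some library, plotted as count + 0.5 on a log axis, with a point per library. The 5 genes of the set are separated in CLs-1 from all other libraries, CYP11A1 and HSD17B1 are highest in CLs-1 but read everywhere, and FOXL2, INHBB and AMH overlap between libraries.

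Red cell genes in the set were the adult globins and nothing else of that list. HBB, the beta chain of adult hemoglobin, had 324 reads in CLs-1, 2, 0 and 4 in the control libraries, and 1 and 0 in CLs-2 and CLs-3. HBA2, an alpha chain, had 118 reads in CLs-1, 1, 0 and 0 in the control libraries, and 2 and 3 in CLs-2 and CLs-3. HBA1 had 34 in CLs-1 and at most 1 elsewhere. HBA1 and HBA2 are nearly identical copies that lie 2.97 kb apart, so how reads were split between them is uncertain. Summed, the 3 genes were 132-fold (79.2 to 237.7) above the other libraries. The other globins and the red cell membrane and enzyme genes were at or near 0: HBD had 2 reads in CLs-1, HBG2, ALAS2 and SLC4A1 had 1 each there, and 10 of the 19 genes of the list, among them AHSP and CA1, were at 0 in all 6 libraries.

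The list of retinoid handling and BMP response had 3 of its 14 genes in the set. ALDH1A1, which oxidizes retinal to retinoic acid, had 191 reads in CLs-1, 3, 0 and 4 in the control libraries, and 2 and 3 in CLs-2 and CLs-3. ID4, an inhibitor of helix-loop-helix factors that BMPs can induce, was read in CLs-1 alone, with 19 counts. Its relatives ID1 and ID3 were abundant in every library, at 1654 and 4339 reads in CLs-1, against 866 to 1942 and 1296 to 4091 elsewhere. ALDH1A3, another retinal dehydrogenase, had 1098 reads in CLs-1 and 745 to 1439 elsewhere, so the other libraries had few reads of ALDH1A1 but many of a related enzyme.

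From the neuronal and neuroendocrine list came 6 of 31 genes. CPLX2, a complexin of synaptic vesicle release, had 96 reads in CLs-1, 1, 1 and 4 in the control libraries, and 0 in CLs-2 and CLs-3. UCHL1, a ubiquitin hydrolase abundant in neurons, had 50 in CLs-1, 0, 1 and 0 in the control libraries, and 2 and 1 in CLs-2 and CLs-3. NPTX2, a neuronal pentraxin, had 46 in CLs-1, 0, 1 and 1 in the control libraries and 0 in CLs-2 and CLs-3. These levels in the 5 other libraries differed by a few reads at most. SDK1, a synaptic adhesion protein, had 26 reads in CLs-1 and 0 elsewhere, CCKBR, a gastrin and cholecystokinin receptor, had 19 in CLs-1 and 1 in CLs-2, and CHGB, a granin of secretory granules, had 13 in CLs-1 and at most 1 elsewhere. Of the 20 genes of that list that had a read and were outside the set, 4 were highest in CLs-1, a share below the 27% of all such genes.

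Plasma proteins of the liver entered the set with 5 of 32 genes. APOA1, the main protein of high-density lipoprotein, had 51 reads in CLs-1, 0, 1 and 2 in the control libraries, and 0 and 2 in CLs-2 and CLs-3. SERPINA3, an acute-phase protease inhibitor, had 36 in CLs-1, 1 in Control-3 and in CLs-3, and 0 elsewhere. The genes of all 3 fibrinogen chains were in the set, with 13 counts of FGA, 12 of FGB and 15 of FGG in CLs-1, and a single read, of FGA in CLs-3, in all other libraries. Summed, the 5 genes were 66.0-fold (32.5 to 156.3) above the other libraries. SERPINA1 and MASP1 missed the ratio of 8, with 38 and 24 reads in CLs-1 and at most 7 and 4 elsewhere.

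The fibrinogen genes lie side by side, FGB and FGA 10.3 kb and FGA and FGG 13.4 kb apart on chromosome 4, and had like counts, so their promoters are printed. They are the 150 bases before the start in RefSeq on GRCh38.p14, 5′ to 3′ on the strand of the gene. This build differs from the hg19 build named for the counts, and the coordinates belong to RefSeq alone. FGA is on the minus strand at chr4:154590743-154590892, FGB on the plus strand at chr4:154562830-154562979 (the first of its listed starts) and FGG on the minus strand at chr4:154612657-154612806. Capitals mark CCAAT, a promoter element bound by several common factors, or its reverse complement.
FGA: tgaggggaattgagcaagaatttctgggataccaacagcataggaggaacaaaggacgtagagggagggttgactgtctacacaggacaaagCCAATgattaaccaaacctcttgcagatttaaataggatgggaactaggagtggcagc
FGB: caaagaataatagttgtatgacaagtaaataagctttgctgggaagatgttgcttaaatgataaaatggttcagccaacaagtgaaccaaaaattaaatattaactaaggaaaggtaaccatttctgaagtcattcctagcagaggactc
FGG: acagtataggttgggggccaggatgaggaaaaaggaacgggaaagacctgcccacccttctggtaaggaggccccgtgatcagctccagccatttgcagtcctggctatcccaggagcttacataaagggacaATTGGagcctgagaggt
FGA and FGG each held 1 match and the printed FGB window none, which says only that these letters are not there. In the longer window of 250 bases, searched below, CCAAT was found for FGB as well.

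Promoters in RefSeq were matched for 67 of the genes, with 85 starts. STAR, COL1A2, HBB, HBA1 and HBA2 were not among them and were not searched. In the 250 bases before the start, on both strands, AAGGTCA, a sequence bound by NR5A1, was found in 5.88% of these 85 promoters and in 3.44% of all 35116, and HSD3B2 and NR5A1 were not among its carriers. The cyclic AMP response element TGACGTCA was in 3.53% against 1.65%, TATAAA in 10.6% against 10.7%, the GATA site AGATAA in 8.24% against 9.17%, and CCAAT in 36.5% against 32%. No test was made of these shares, and a match is not a bound site.

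Chemokines gave 3 of 13 genes, each with 0 counts in all 5 other libraries. CXCL5, a neutrophil attractant, had 42 reads in CLs-1, CXCL1, of the same family, had 15, and CXCL12, the ligand of CXCR4, had 10. Summed they were at least 92.9-fold higher than a floor of 3 counts over the pooled 5 libraries. CCL2 and LIF of the same list were read in every library, with 88 and 245 reads in CLs-1 and 55 to 82 and 126 to 232 elsewhere. G0S2, an inhibitor of fat breakdown, was the single gene of the fat cell list in the set. It had 31 reads in CLs-1 and 0 elsewhere, at least 43.0-fold higher than that floor. The fat cell genes ADIPOQ, FABP4 and LEP were at 0 in all 6 libraries. PLIN1 had 2 reads in CLs-1 and 5 to 8 elsewhere, and LPL had 1124 in CLs-1 and 706 to 1161 elsewhere. None of the 5 genes of that list with a read outside the set was highest in CLs-1, beside 27% of all such genes.

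Myeloid genes contributed CD74, the invariant chain of MHC class II, with 21 reads in CLs-1 and 1 in Control-2, and MARCO, a scavenger receptor of macrophages, with 11 in CLs-1 and 1 in Control-3 and in CLs-2. The defining leukocyte marker PTPRC had 1 count in CLs-1 and at most 1 elsewhere, and CD163 was at 0 in all 6 libraries. C1QA, C1QB, C1QC, SPI1, TYROBP and HLA-DRA had 2 to 6 reads in CLs-1 and 0 in every other library. In total 14 of the 23 genes of that list that had a read and were outside the set were highest in CLs-1, beside 27% of all such genes. CD68, a lysosomal protein, was read in every library, with 291 reads in CLs-1 and 149 to 265 elsewhere.

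The remaining 13 lists had no gene in the set. They were endothelium, lymphocytes, mast cells, skeletal and heart muscle, glia and melanocytes, squamous epithelium, placenta, kidney, lung, gut, pancreas, germ cells and uterine stroma. None of the 12 endothelial genes with a read had its highest CPM in CLs-1. The share was also 0 in mast cells, lung, pancreas, germ cells and uterine stroma. It was 62.5% of 8 genes in glia and melanocytes and 40% of 5 genes in kidney, beside the 27% of all such genes. In the other lists without a gene in the set it was 11.1% to 25%. The part of these cell types in the CLs-1 reads was not tested.

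Outside the lists stood 54 genes, of which 34 were given a role after their values were seen. FOSB, a stimulus-induced AP-1 transcription factor, had the most reads of them and the highest background of the set: 270 reads in CLs-1, 11, 13 and 22 in the control libraries, and 16 and 17 in CLs-2 and CLs-3. EGR3, another stimulus-induced factor, had 15 in CLs-1 and 1 in CLs-2. The ranges show FOSB as a gene read in all libraries and EGR3 as one near 0 outside CLs-1.

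Lipid droplet and lipoprotein genes outside the lists summed to 206 reads in CLs-1 and 4 to 10 elsewhere. PLIN2, which coats lipid droplets, had 91 reads in CLs-1, 1, 0 and 7 in the control libraries, and 1 and 3 in CLs-2 and CLs-3. APOE, an apolipoprotein made by liver, macrophages and steroidogenic tissue, had 75 in CLs-1, 2, 4 and 3 in the control libraries, and 2 and 4 in CLs-2 and CLs-3. APOC1, 4.93 kb from APOE, had 40 in CLs-1 and 1, 2, 0, 2 and 0 in Control-1, Control-2, Control-3, CLs-2 and CLs-3. By counts, the treated libraries CLs-2 and CLs-3 did not exceed the highest control library in any of these 3 genes. In APOE and APOC1 the highest counts were tied, so the order of their CPM is set by the library totals.

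Epithelial genes numbered 7 and summed to 146 reads in CLs-1 and 4 to 6 elsewhere. MUC5B, a gel-forming mucin, had 51 reads in CLs-1 and 2 or 3 in each of the others. ANPEP, an aminopeptidase of brush borders, had 23 in CLs-1 and at most 1 elsewhere, and GPX2, a glutathione peroxidase of gut epithelium, had 22 in CLs-1 and at most 2. KRT23, a keratin, had 14 in CLs-1 and at most 1. Among 9 genes of cytoskeleton, junctions and adhesion, with 176 reads in CLs-1 and 1 to 4 in each other library, were TNS1, a tensin of focal adhesions (37 reads in CLs-1, at most 2 elsewhere), LMCD1 (33, at most 1), PDLIM4 (24, at most 1), DAAM2 (17, at most 1) and GJA1, the gap junction protein connexin 43 (15 in CLs-1 and 0 elsewhere).

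Secreted plasma and matrix proteins outside the lists were 6, with 101 reads in CLs-1 and 1 to 3 in each other library. SERPINF1, an antiangiogenic serpin, had 32 reads in CLs-1, 0, 1 and 3 in the control libraries and 0 in CLs-2 and CLs-3. CP, the copper carrier ceruloplasmin, had 15 reads in CLs-1, and ADAMTS9, a matrix protease, and ITIH5 had 14 each, all with 0 elsewhere. AEBP1 had 15 in CLs-1 and at most 1 elsewhere. The 5 neural genes summed to 71 reads in CLs-1 and 0 to 4 elsewhere, and included SV2A, a synaptic vesicle protein, with 19 reads in CLs-1 and at most 1 in the others, and KIRREL3, an adhesion protein of synapses, with 17 and at most 1. SRGN, the proteoglycan of blood cell granules, had 19 reads in CLs-1 and 1 in Control-1. Of the genes with no role given, C11orf96 had 64 reads in CLs-1 and 1 in CLs-2, FBXO17 had 22 in CLs-1 and at most 2 elsewhere, and H2AFY2 had 14 in CLs-1 and 0 elsewhere.

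**Figure D4:**
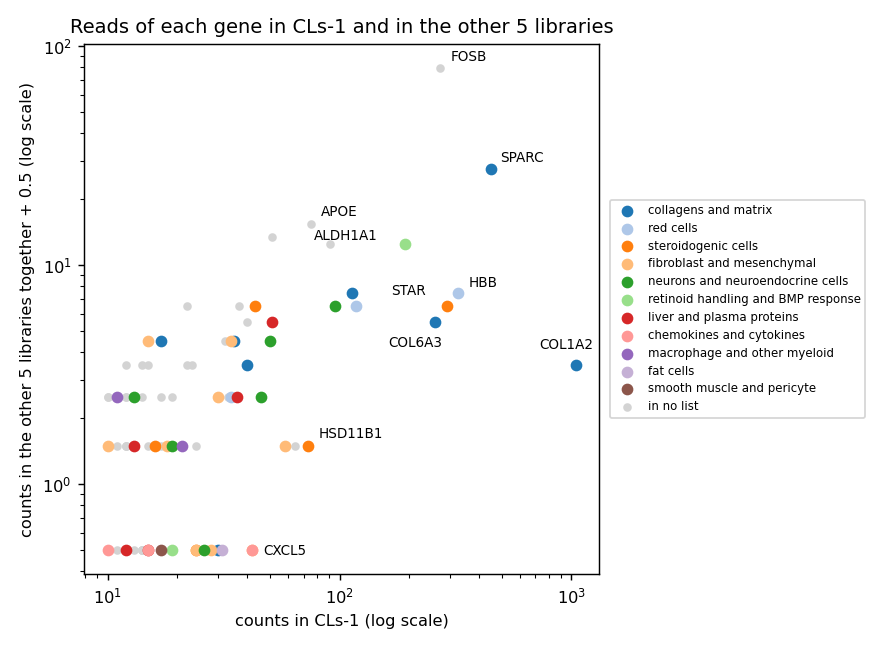
Counts of 98 of the genes in CLs-1 (horizontal, log axis) against the counts of the other 5 libraries together plus 0.5 (vertical, log axis), a point per gene, coloured by list. FOSB lies highest with 79 counts in the other libraries, SPARC follows with 27, and the lowest line of points holds genes with 0 counts outside CLs-1, CXCL5 among them.

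Counts per kilobase of exon allow levels to be set side by side between genes within CLs-1. On this scale HBB was first with 303.4 counts per kb, followed by HBA2 with 204.9, COL1A2 with 192.8, STAR with 150.3 and SPARC with 121.9. ALDH1A1 had 90.6 counts per kb. HBB and HBA2 thus ranked above COL1A2 per length, though COL1A2 had more reads than either, and HBA1 ranked below it with 58.9. FOSB had 48.6 counts per kb and HSD11B1 48.3, while COL6A3, a long transcript, had 23.7.

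By position, the 98 genes that matched RefSeq were all protein coding and were spread over 22 chromosomes, with at most 9 on 1 chromosome. Within 100 kb of each other were 8 pairs: the fibrinogen genes (3 pairs), HBA2 and HBA1, APOE and APOC1, G0S2 and HSD11B1 (9.79 kb apart), and, named for their position only, KRT23 and KRTAP1-5 and the overlapping DAAM2 and MOCS1. The strand setting of the counting is not given in the sources used here, so reads of DAAM2 and MOCS1 cannot be told apart with certainty.

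The threshold of 8 cut through a continuous range. Just inside it were ADAM12 and GPRIN3, both at a ratio of 8.16, LARGE at 8.30, and CLDN11 and C1orf51 at 8.36, each with 10 reads in CLs-1 and 1 count in the highest other library. Just outside were MMP2, a gelatinase of fibroblasts, at 7.24, ADAMTS2 and NFASC at 7.11, CDH17 at 7.06 and FHOD3 at 6.97. MMP2 had 204 reads in CLs-1 and 6 to 23 elsewhere, and was left out although its reads outnumbered those of most genes of the set. In all, 36 genes had ratios above 4 and up to 8.

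The same rule was applied with each other library in the place of CLs-1. It gave 0 genes in Control-1, Control-2, CLs-2 and CLs-3 and 2 in Control-3, which were CDH5, an endothelial cadherin (36 counts in Control-3, at most 1 elsewhere), and CACNG3 (10 counts, at most 1 elsewhere). At a ratio above 4, CLs-1 had 136 genes and Control-3 had 13, with at most 1 in any other library. At a ratio above 2, CLs-1 had 234 genes, Control-3 had 105 and the other libraries 14 to 40.

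**Figure D5:**
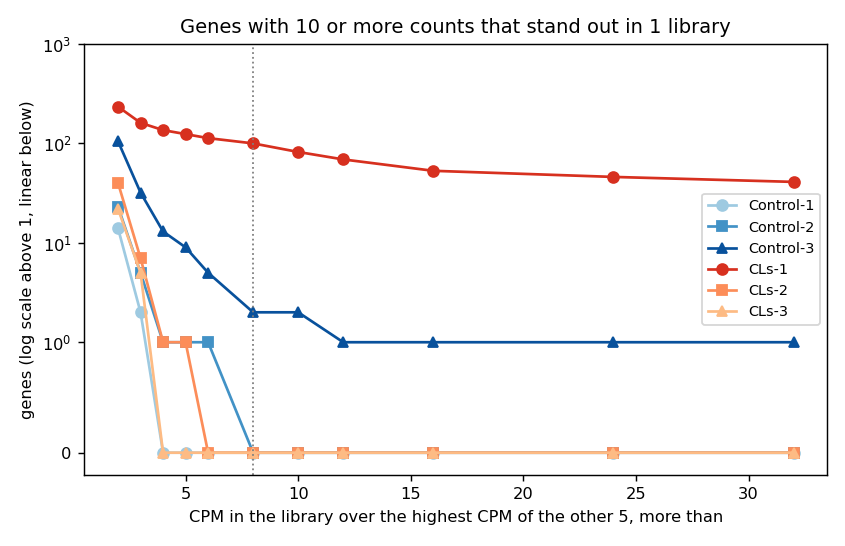
Number of genes with 10 or more counts in a library whose CPM there exceeded the highest CPM of the other 5 libraries by more than the ratio on the horizontal axis (2 to 32), a line per library. The vertical axis is logarithmic above 1 and linear below, and the dotted line marks the ratio of 8. At 8 the CLs-1 line stands at 100 genes, Control-3 at 2 and the others at 0.

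These genes also entered the comparison of the CLs-treated with the control group, a contrast that the selection had used, so the counts of calls are given without a reading. The criteria were an adjusted p-value under 0.05 and a fold above 1.5 or below 0.67. With edgeR's quasi-likelihood test and its filter on low counts, FOSB was the 1 gene of the set left among 15047 genes tested. None was called higher, where 0.0133% of all genes tested were, and FOSB had an unadjusted p-value under 0.05. With no filter, all 100 were tested and 24 were called higher, among them COL1A2, STAR, HBB and CXCL5, where 0.228% of 25432 genes were, and the 24 made up 41.4% of all higher calls. Adding the replicate number as a block to the unfiltered fit called 28, where 0.46% of the genes were called. By DESeq2 none was called, where 0.0996% of the genes with an adjusted p-value were. In that fit 3 of the 100 received an adjusted p-value and 97 did not, and 15 had an unadjusted p-value under 0.05. Without CLs-1 and with no filter, 72 of the genes still had a read and were tested. None of these was called by edgeR, where 0.0122% of 24504 genes were called higher, and 0 had an unadjusted p-value under 0.05. The rule had chosen these genes for few reads in the same libraries, so this outcome was largely fixed in advance. The study, working on these same samples, singles out 13 genes of the set by name. They are STAR, HSD3B2, HSD11B1, G0S2, CXCL5, APOA1, ALDH1A1, HBA1, HBA2, HBB, THY1, GREM1 and BGN. Their reads were in CLs-1 as described above, which the rule required of every gene of the set. The study also names genes outside the set, such as PDK4 and DHCR7.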

How the data were processed

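RNA-seq libraries (single-end, Ion Proton, total RNA by Trizol) of the 6 samples were mapped by the authors with MapSplice, and the authors deposited whole-number counts of reads per gene symbol, without normalization. The submitters' processing notes name HTSeq 0.6.1 and the hg19 (GRCh37) build. The strand setting and the handling of reads with several matches are not given in the sources used here. The authors also computed RPKM values and called genes with EBSeq, and neither is part of the deposited counts.

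CPM were computed from column totals (11418527 to 13998946 counts). Exact Poisson intervals, exact conditional intervals of ratios to the pooled other 5 libraries, and floors of 3 counts cover counting error only. Groups were compared with edgeR 4.0.16 in R 4.3.3 (filterByExpr, TMM, quasi-likelihood test on condition alone, Benjamini-Hochberg adjustment over all genes tested). This filtered fit was run on simulated data, with genes changed in every treated library. The unfiltered fits, and genes with reads in a single library, were not simulated. EBSeq was not run here. Alternatives were DESeq2 1.42.0, other scalings, no filter, the replicate block, other count minimums and ratios, and each library left out.

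The genes and the marker lists were chosen with earlier results of these data known. Named were up to 8 genes of each list with the most CLs-1 counts, 25 genes in no list, 5 on each side of the ratio of 8 and 13 named by the study. Exon lengths came from GENCODE 29 (98 of the genes matched), positions and promoters from RefSeq. Of the 100 genes, 2 are kept in all totals and not reported by name.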

Additional observations from a re-analysis of the deposited data

How the results depend on the processing

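The selection gave 158 genes with a count minimum of 5, 44 with a minimum of 20 and 35 with a minimum of 30, and 53 at a ratio above 16 and 41 above 32. At a ratio above 4 it gave 136 genes, with TMM-scaled totals 100 and with DESeq2 size factors 97. Leaving out a single other library gave 103 to 114 genes, all 100 among them. CLs-1 cannot be left out of a rule that it defines. In the group comparison 0 genes of the set were called, and this became 24 in the unfiltered fit and 28 in the unfiltered fit with the replicate block. Of all genes tested, 0.0133%, 0.228% and 0.46% were called higher in these fits, in that order. With the replicate block alone 0 genes of the set were called, as with the other scalings and DESeq2. Those fits called 0.0133% to 0.0996% of all genes tested higher. In the filtered edgeR fit, where FOSB alone was tested, leaving out each library in turn gave 0 to 0. Of all genes tested there, 0.0065% to 0.0195% were called higher. The unfiltered fit was repeated without CLs-1 only, and gave 0 of 72 genes tested, where 0.0122% of all genes tested were called higher. The filter removed 99 of the 100 genes before the test, and the fits without it test genes with most of their reads in 1 library. Deviations from the group means correlated at 0.111, 0.0987 and 0.305 for the replicate numbers 1, 2 and 3. The labels give the numbers only. Whether samples of the same number were paired or shared a batch cannot be told from these values. Of the 100 genes, 56 had 10 to 19 counts in CLs-1, so a few reads decide their ratio.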
